A study of Homo sapiens with 2 samples.

Results

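Carbon metabolism enzymes are the genes that the authors' KEGG table of ALKBH5-bound RNA places under the pathway named Carbon metabolism. Every symbol in that row was taken once, which gave 71 members among the 5851 symbols of the deposited tables. The study measured RNA by immunoprecipitation and sequencing in cells of the human line HL-60, which derives from a promyelocytic leukaemia, with an antibody against ALKBH5. The labels hold 1 immunoprecipitated (IP) library, from 80% of the lysate, and 1 input library, from 10%. Both came from HL60 cells with the genotype entry ALKBH5 and no treatment is named; the title of each library contradicts its library name, and the groups follow the library name. The tables do not give a level per gene or per library. A gene is therefore described as named or not named, the depth behind it is unknown, and the IP could not be set against its input gene by gene. With 1 library per group there are no replicates. Since membership was decided by the authors' list of genes with peaks, the counts in that row are a description and were not tested.

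ALKBH5 removes the methyl group of N6-methyladenosine from RNA. Carbon metabolism joins glycolysis, which splits glucose to pyruvate, with the pentose phosphate pathway, which makes NADPH and ribose, and the citrate cycle, which oxidises acetyl-CoA in mitochondria. Side branches make serine and glycine, feed methyl groups into the folate cycle and bring in carbon from amino acids and short acyl chains. Mature neutrophils are known for a high glycolytic rate and for using pentose phosphate NADPH in the oxidative burst.

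The authors' deposited table gave Carbon metabolism 71 entries on 117 background genes, with a rich factor of 1.82, a p-value of 0.00136 and a corrected p of 0.100. The 71 entries stood on 70 distinct gene identifiers. Counted by identifier, 59.8% of the background genes were named (exact Clopper-Pearson 95% interval 50.4 to 68.8%). Summed over the other listed KEGG pathways, with a gene counted in each of its pathways, 51.6% of the background genes were named by identifier. That comparison is between rows that all passed the authors' limit for listing, and 14 of the others share members with Carbon metabolism. By the share of identifiers Carbon metabolism was 8th of the 38. The rich factor corresponds to an overall share of 33.3%, and of all protein-coding RefSeq genes the GO and KEGG tables named 25% by symbol as written.

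**Figure D1:**
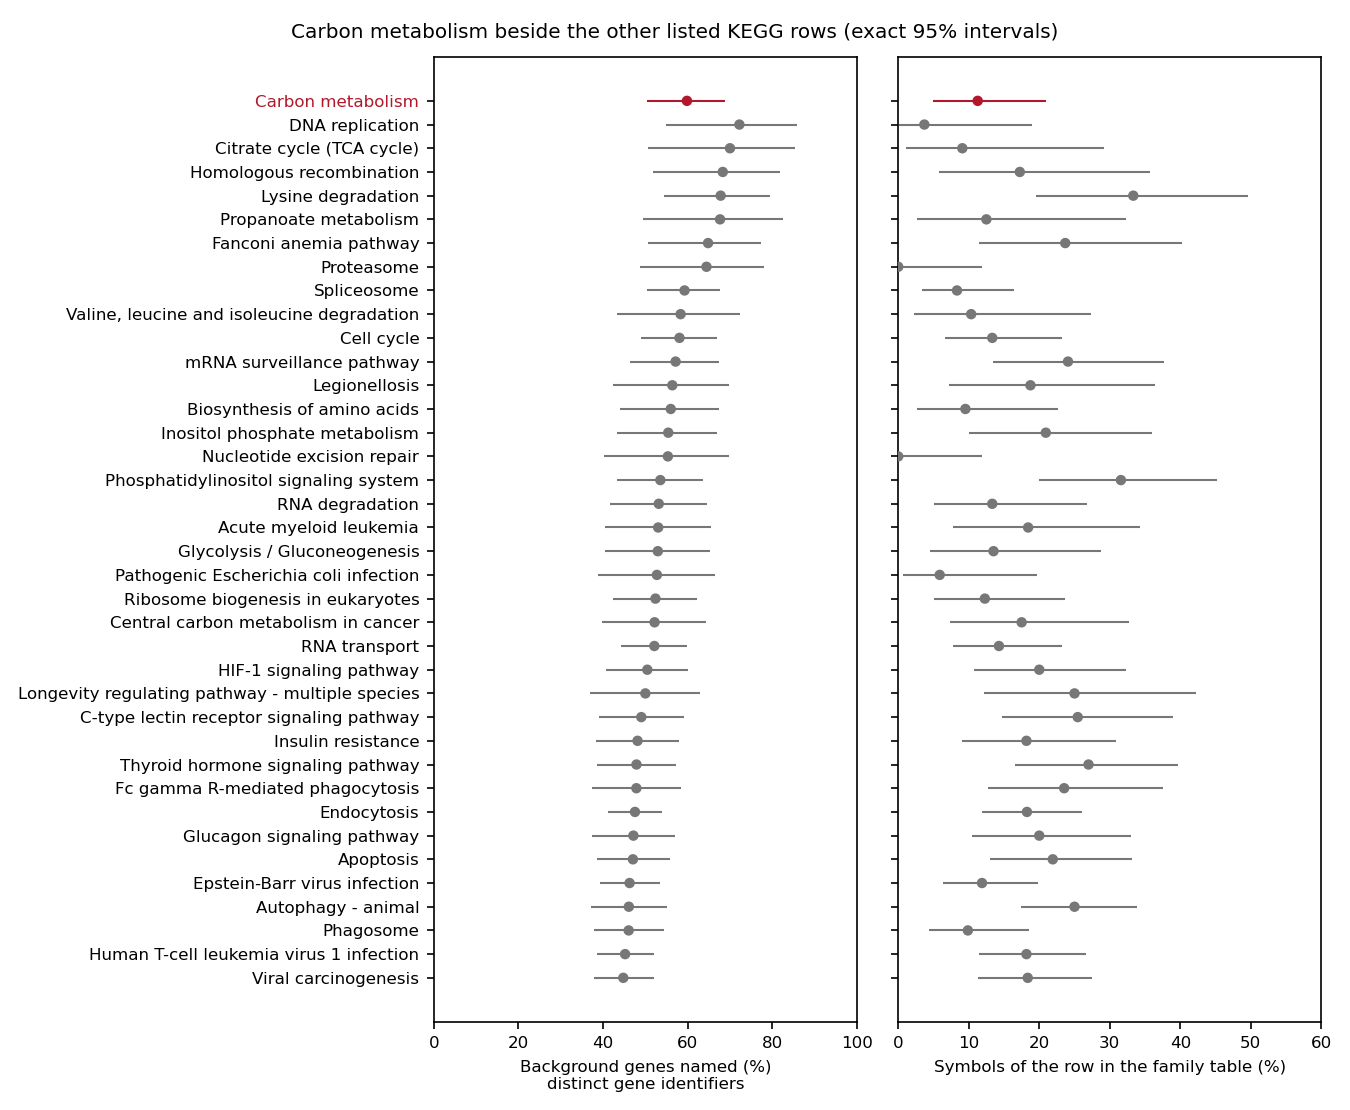
Share of background genes named by distinct identifier (left, %) and share of each row's symbols in the family table (right, %) for the 38 KEGG rows, with exact 95% intervals as bars. Carbon metabolism (red, top) stood at 59.8% on the left and at 11.3% on the right, inside the span of the other rows in both panels.

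Shared identifiers hardly touched this row. Only RP11-802O23.3 and AC007383.4 carried the identifier of another gene, those of PDHB and GCSH. PDHB had an entry under its own symbol as well, while GCSH, the carrier protein of glycine cleavage, was present through AC007383.4 alone. Across the 38 rows, distinct identifiers made up between 50.9 and 100% of the entries (median 93.2%), and 98.6% in Carbon metabolism.

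An enzyme list of 119 genes, sorted by step from textbook knowledge, served to show which genes of each step were named. The row named 66 of the 119 (55.5%, exact 95% interval 46.1 to 64.6%). Of all protein-coding genes, GO or KEGG rows named 25%. The 2 shares are not alike: the 25% counts any row and symbols as written, the 66 counts 1 row and older symbols too. That row was also among those within the authors' limit for listing. The members outside the list included TKFC, which phosphorylates dihydroxyacetone and glyceraldehyde, ACOX3, which oxidises branched acyl chains in peroxisomes, and the symbols RP11-802O23.3 and AC007383.4. By step, the share was lowest for the pentose phosphate genes, at 5 of 16 (31.2%, 11.0 to 58.7%). It was 15 of 22 for the citrate cycle (68.2%, 45.1 to 86.1%), and these intervals overlap. A gene of the list can also lack an entry because KEGG does not place it in this pathway.

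**Figure D2:**
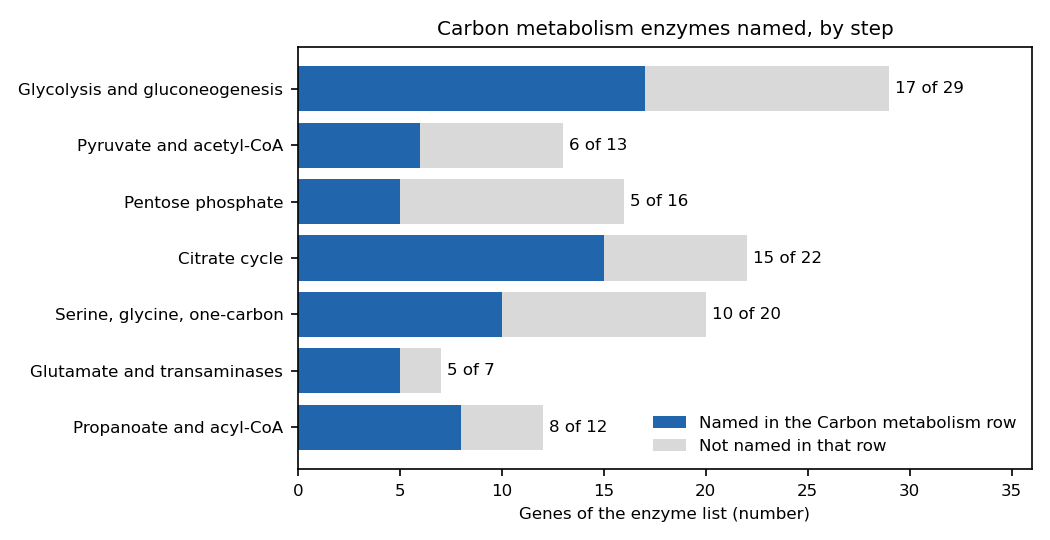
Number of genes of the 119-gene enzyme list in each step that the Carbon metabolism row named (blue) or did not name (grey). Glycolysis had 17 of 29 genes named, the citrate cycle 15 of 22 and the pentose phosphate pathway 5 of 16.

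Each of the 10 enzymatic steps of glycolysis had at least 1 named gene, where any 1 isozyme was enough for a step. By gene, the share for glycolysis and gluconeogenesis was 17 of 29 (58.6%, 38.9 to 76.5%). That is near the 55.5% of the whole enzyme list. All of HK1, HK2 and HK3, the hexokinases that trap glucose in the cell, were named, and HKDC1 was not. GPI, which isomerises glucose 6-phosphate, was named, as were the 3 phosphofructokinase subunits PFKL, PFKM and PFKP of the committed step. The aldolases ALDOA and ALDOC, which split fructose bisphosphate, were present. TPI1 and GAPDH, which interconvert and oxidise the triose phosphates, and PGK1, the first ATP-yielding kinase, followed. The enolases ENO1, ENO2 and ENO3 were named without ENO4, and PKM, the pyruvate kinase of most proliferating cells, without PKLR.

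Phosphoglycerate mutase was the step at which the isozyme named was the muscle form. PGAM2 had an entry, whereas PGAM1, the broadly expressed form, and its retrocopy PGAM4 had none in any table. PGAM2 is the shortest member (2.84 kb, chromosome 7 from 44062727 to 44065567, GRCh38.p14). It lies over its whole length of 2841 bases inside DBNL on the opposite strand, and DBNL was itself named in the tables. The library kit keeps strand, but whether peaks were assigned to genes by strand is not given in the sources used here. Whether the overlap plays a part in the entry was not tested. RefSeq also lists 13 pseudogenes named after PGAM1.

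The list also holds isozymes known for a restricted tissue range. None of the 6 forms known from testis or sperm had an entry under its own symbol in the Carbon metabolism row (GAPDHS, PGK2, PDHA2, PGAM4, PRPS1L1 and TKTL2). Of the 7 genes known mainly from liver 1 was named, CPS1, which makes carbamoyl phosphate for the urea cycle. Of the 4 muscle forms PFKM, PGAM2 and ENO3 were named and FBP2 was not. These classes were drawn up after the entries were seen, and not every isozyme with a tissue name was placed in one. PFKL, the liver type of phosphofructokinase, and ENO2, the neuronal enolase, were named but left out. The counts therefore depend on which genes were classed, and the classes cannot be compared with each other. The tables hold no level, so an unnamed gene may be unexpressed in HL-60 or expressed without a peak.

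Between glycolysis and the citrate cycle, the pyruvate dehydrogenase complex had 3 of its 4 listed subunits named. PDHA1 and PDHB, which form its decarboxylase, and DLD, the lipoamide dehydrogenase it shares with the oxoglutarate and glycine cleavage complexes, were named. DLAT, the acetyltransferase core, was not. PC, the carboxylase that turns pyruvate into oxaloacetate, ACSS2, the acetyl-CoA synthetase of cytosol and nucleus, and the mitochondrial malic enzyme ME2 were named. ACSS1, the mitochondrial acetyl-CoA synthetase, and the malic enzymes ME1 and ME3 had no entry.

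In the citrate cycle, 7 of 8 steps had a named gene, and citrate synthase, the entry step encoded by CS, had none. ACO1, the cytosolic aconitase that doubles as an iron sensor, was named. Both NADP-dependent isocitrate dehydrogenases (IDH1 and IDH2) and both malate dehydrogenases (MDH1 and MDH2) were named, that is, the cytosolic and the mitochondrial form of each. Fumarase, encoded by FH, was named too. OGDH, DLST and DLD, which together make the oxoglutarate dehydrogenase complex, were all present, and the OGDH relative OGDHL was absent.

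Other multi-subunit enzymes of the cycle were covered in part. The NAD-dependent isocitrate dehydrogenase had IDH3B and IDH3G without its catalytic subunit IDH3A. Succinyl-CoA ligase had both alternative beta subunits, SUCLA2 and SUCLG2, without the shared alpha subunit SUCLG1. Succinate dehydrogenase had the flavoprotein SDHA and the membrane anchor SDHC, without the iron-sulfur subunit SDHB and the other anchor SDHD. DHTKD1, a relative of OGDH in lysine breakdown, was named in the Lysine degradation row but not in this one.

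The pentose phosphate pathway was covered in part. PGD, the dehydrogenase that releases ribulose 5-phosphate, and H6PD of the endoplasmic reticulum were named. So were TKT and TALDO1, the transketolase and transaldolase that return sugars to glycolysis. The lactonase PGLS, which acts before PGD, and the isomerase RPIA and the epimerase RPE, which act after it, had no entry. PRPS1 and PRPS2, which activate ribose for nucleotide synthesis, had none either, nor did TKTL1 and TKTL2.

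Serine synthesis was complete, with PHGDH, PSAT1 and PSPH, its 3 consecutive enzymes. SHMT2, which splits serine to glycine and a folate-bound carbon in mitochondria, was named and the cytosolic SHMT1 was not. The glycine cleavage system was represented by DLD, and by GCSH through the identifier of AC007383.4, without GLDC and AMT. GLYCTK, a glycerate kinase, and PGP, which removes phosphate from phosphoglycolate, were members, as were ADH5 and ESD, which act in turn on the glutathione adduct of formaldehyde, and CAT, the catalase of peroxisomes. HYI, the hydroxypyruvate isomerase, was named in the family table alone.

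Nitrogen-linked members were GLUD1, the glutamate dehydrogenase, both aspartate aminotransferases GOT1 and GOT2, the mitochondrial alanine aminotransferase GPT2 and CPS1. GLUD2, the retrocopy of GLUD1, and GPT had no entry. In propanoate breakdown, both subunits of propionyl-CoA carboxylase (PCCA and PCCB) and the mutase MMUT, entered under its older symbol MUT, were named. The epimerase MCEE, which acts between them, was not. HADHA, HIBCH, ALDH6A1 and the thiolases ACAT1 and ACAT2, which handle acyl chains and valine, completed the group, without ECHS1, EHHADH and ACADS.

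Members recurred in 14 other KEGG rows, all of them parts of the same deposited table. Biosynthesis of amino acids shared 30 of its 42 entries, Glycolysis / Gluconeogenesis 23 of 37 and Citrate cycle 20 of 22. In the authors' deposited table these rows had corrected p-values of 0.288, 0.422 and 0.264. Glycolysis / Gluconeogenesis, with a deposited p-value of 0.0497, was the last row within the authors' limit. HIF-1 signaling pathway, the response to low oxygen that induces glycolytic genes, shared 16 of its 60 entries. These were the hexokinases, phosphofructokinases, aldolases and enolases already named, with GAPDH, PGK1, PDHA1, PDHB and RP11-802O23.3. RNA degradation shared 6 entries, which were the enolases and phosphofructokinases. PFKP occurred in 7 other rows, more than any other member, and 10 members occurred in none, among them GLUD1, H6PD, ME2 and PGD.

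The GO rows placed the members mainly in cytosol and mitochondria. Of the 71, 43 were entries of the GO row cytosol (60.6%, beside 43.9% of all GO or KEGG symbols), 38 of mitochondrion (53.5%, beside 10.2%) and 29 of mitochondrial matrix (40.8%, beside 3.22%). All 18 members placed in glycolysis were in cytosol and 4 of them, HK1, HK2, HK3 and PKM, in mitochondrion as well. Of the 15 citrate cycle members 14 were in mitochondrion, and MDH1 was the exception. The members in nucleoplasm were fewer, at 9 (12.7%, 6.0 to 22.7%), beside 34.5% of all GO or KEGG symbols. In the GO row nucleus there were 24 members (33.8%, 23.0 to 46.0%), and the 41.3% of all GO or KEGG symbols lies within the interval. The GO row canonical glycolysis held 21 entries, of which 17 were members (23.9% of the 71, beside 0.374% of all GO or KEGG symbols). Members were chosen as carbon metabolism enzymes, which include those of glycolysis and the citrate cycle. High shares in canonical glycolysis, mitochondrion and mitochondrial matrix were therefore built into the choice and are a description only. The same holds for the share in cytosol and the low share in nucleoplasm, which depend on the kind of enzyme chosen. In mitochondrion, mitochondrial matrix, nucleus and nucleoplasm, PDHB is counted under its own symbol and again as RP11-802O23.3.

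**Figure D3:**
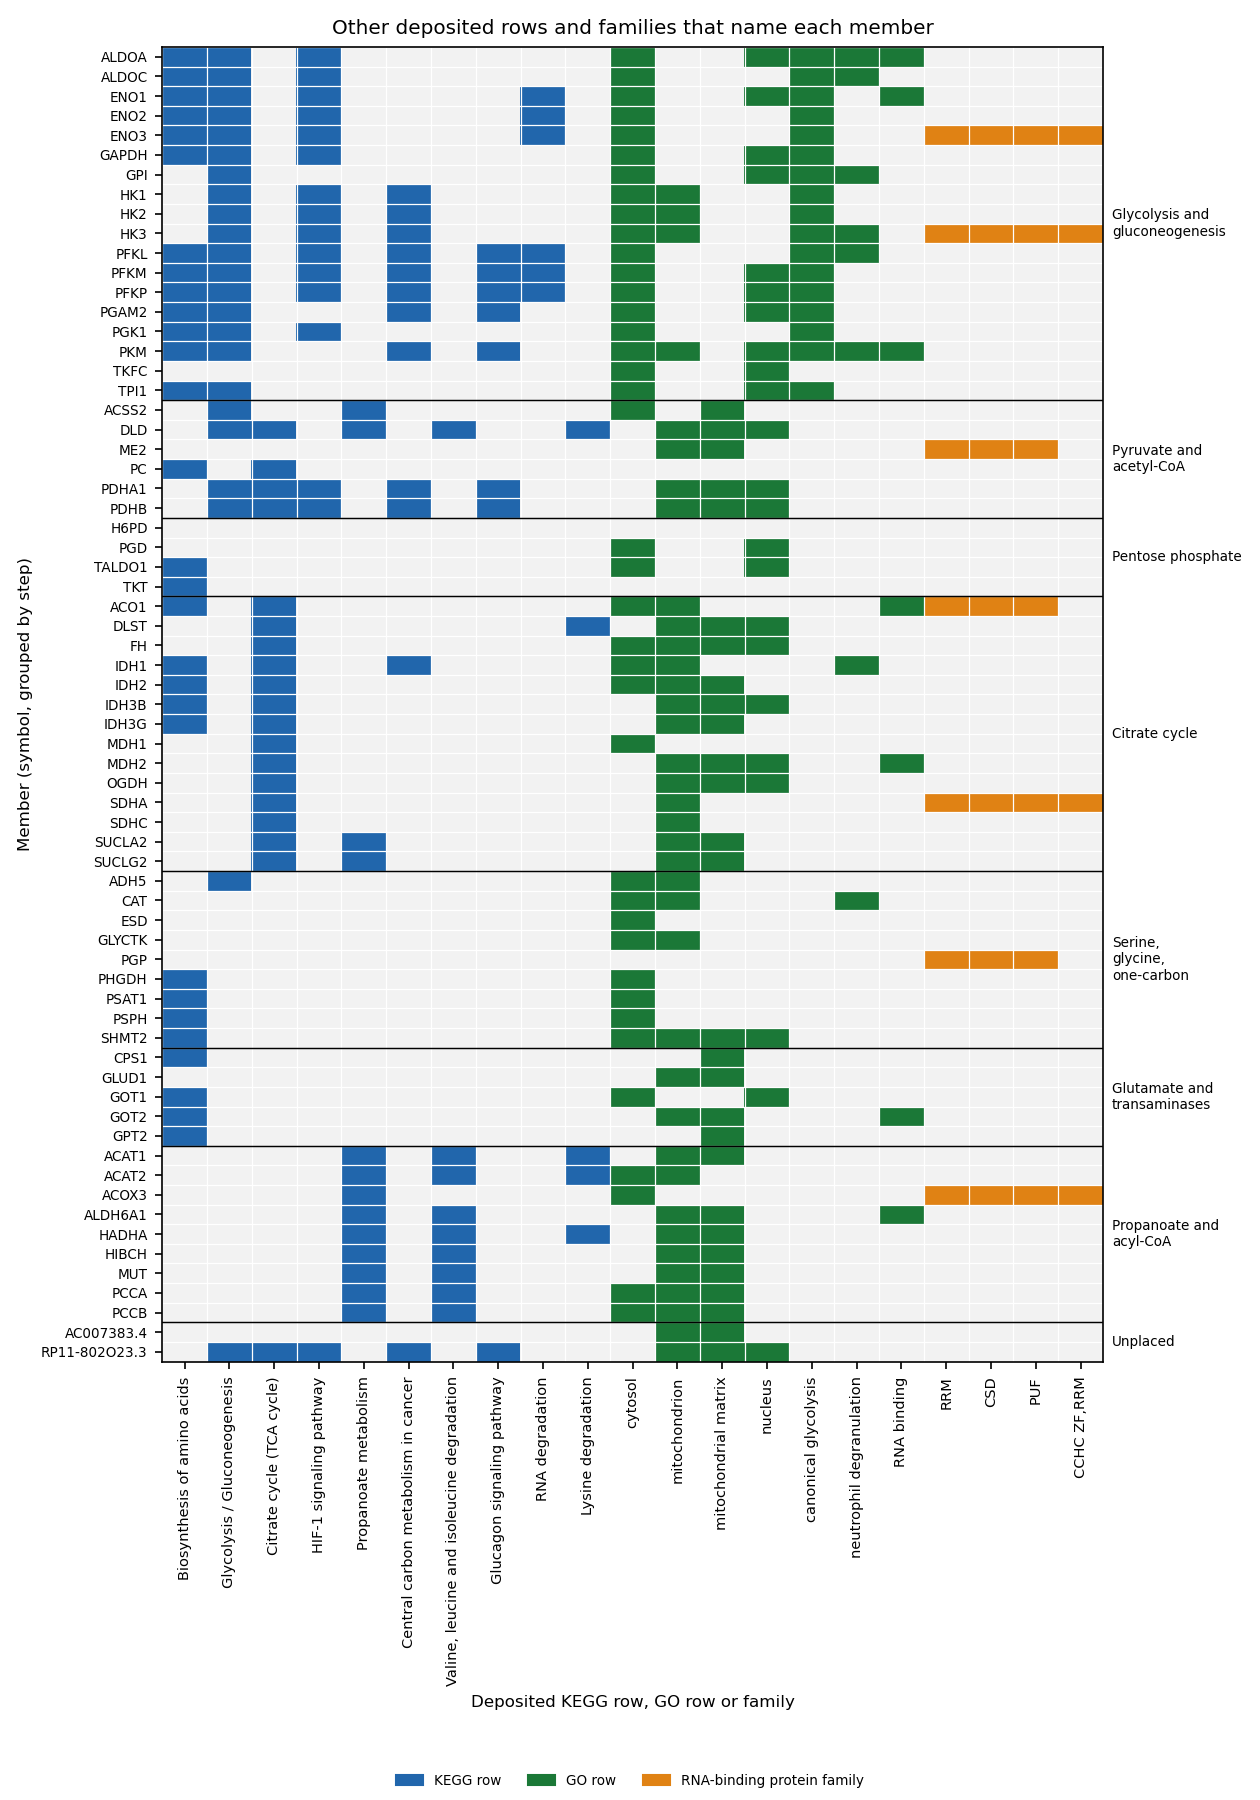
A total of 67 of the 71 members (vertical axis, grouped by step) against the other deposited KEGG rows with at least 5 members (blue), 7 GO rows (green) and the RNA-binding protein families (orange); a filled cell means that the row or family names the member. All 18 glycolytic members are marked in the cytosol column, and the citrate cycle members shown, other than MDH1, in the mitochondrion column.

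Some enzymes also stood in rows outside metabolism. A set of 8 members was in neutrophil degranulation, in secretory granule lumen and in ficolin-1-rich granule lumen alike: ALDOA, ALDOC, CAT, GPI, HK3, IDH1, PFKL and PKM. They are 11.3% of the members (5.0 to 21.0%), beside 4.22% of all GO or KEGG symbols in neutrophil degranulation, 1.3% in secretory granule lumen and 1.44% in ficolin-1-rich granule lumen. In the authors' deposited table these rows had corrected p-values of 0.412, 0.180 and 0.0767. Of the 8, ALDOA, ALDOC, GPI, HK3, PFKL and PKM are glycolytic, and glycolytic enzymes were part of the choice of members. Whether enzymes without an entry carry the same annotation was not counted, so these shares are a description only. RNA binding held 7 members, namely ACO1, which as an iron regulatory protein binds mRNA when it lacks its iron-sulfur cluster, ALDH6A1, ALDOA, ENO1, GOT2, MDH2 and PKM. That is 9.86% (4.06 to 19.3%), and the 14.6% of all GO or KEGG symbols lies within the interval. These GO entries describe the encoded proteins and not the RNA.

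The family table pairs symbols with families of RNA-binding proteins (RRM, CSD, PUF and a combined CCHC ZF,RRM), and was not used to choose the members. It held 8 of the 71 (11.3%, 5.0 to 21.0%), beside 19.8% of all GO or KEGG symbols. The interval reaches past that background, so a lower share was not shown. A total of 5 members, ACOX3, ENO3, HK3 and SDHA among them, were paired with all 4 families, and ACO1, ME2 and PGP with RRM, CSD and PUF. For the combined family the share was 5 of 71 (7.04%, 2.33 to 15.7%), beside 13.4%. By step they were 2 of the 18 glycolytic members, 2 of the 15 citrate cycle members, 2 of the 10 serine and one-carbon members, and 1 each at pyruvate and in propanoate breakdown. Among the 38 KEGG rows the share ran between 0 and 33.3% (median 17.8%), and 9 rows lay below Carbon metabolism. The other 63 members had no pairing; they include AC007383.4, ACAT1, ACAT2, ACSS2, ADH5 and ALDH6A1.

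By RefSeq, 69 members had a gene row of their own, on 22 chromosomes. Chromosome 1 carried 7 of them, among which were ENO1, FH, H6PD, PGD, PHGDH and SDHC. On chromosome 12, GAPDH (6534517 to 6538371), TPI1 (6867420 to 6870948) and ENO2 (6914580 to 6923697) lie close together. Genomic length, introns included, had a median of 30.1 kb (quartiles 17.8 and 50.4 kb), and ran between 2.84 kb for PGAM2 and 441 kb for PCCA. The 53 list genes not in the row had a median of 20.5 kb and include very short genes, down to 1.08 kb for PRPS1L1. The protein-coding genes that GO or KEGG rows named had a median of 35.7 kb, and all protein-coding genes one of 24.1 kb. In glycolysis the members had a median of 19.3 kb and the genes not in the row 25.9 kb, and in the citrate cycle these medians were 22.2 and 28.6 kb, the opposite order to that over all steps.

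**Figure D4:**
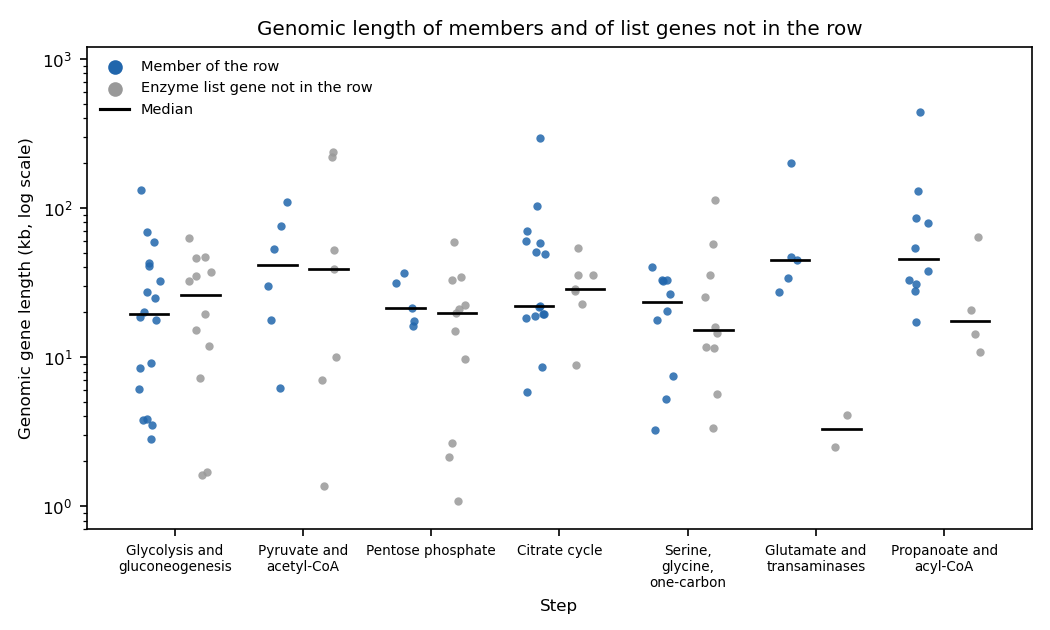
Genomic gene length (kb, log scale) of members (blue) and of enzyme list genes not in the row (grey) by step, each point a gene and each bar a median. The 69 members with a RefSeq row span 2.84 to 441 kb, and the distributions overlap in each step except the glutamate and transaminase genes, where only 2 genes were not named.

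Some members have pseudogenes or overlap another gene. RefSeq lists at least 1 pseudogene named after its parent for 27 of the 69 members, with 65 for GAPDH, 7 for GOT2 and 6 for GLUD1, and for 12 of the 53 list genes not in the row. How reads that match several copies were treated is not given in the sources used here, so these entries are uncertain. Another gene overlaps 33 of the 69, and a protein-coding one overlaps 20. For 5 of them, ACAT2, PFKM and PGAM2 included, the overlapping gene was itself named. Overlapping genes were looked up by current symbol only, so the 5 is a minimum. Overlap was not counted over all genes, so these counts cannot be called high or low. The part of pseudogenes and overlaps in the entries was not tested.

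Of the 11 promyelocytic marker genes 6 were named, MPO, PRTN3, CD33, CEBPA, ITGAM and LYZ, and ELANE, AZU1, CTSG, CEBPE and SPI1 were not. Of 12 markers of other cell types 2 were named, NCAM1 and EPCAM. For scale, GO or KEGG rows named 25% of all protein-coding genes by symbol as written. Both lists are short, so no contrast between them is drawn. Without levels the tables cannot test the label of the cell line.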

How the data were processed

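RNA from an ALKBH5 immunoprecipitate and its input, 1 library each, was sequenced in HL-60 cells. Per the labels' protocols the kit was a stranded mRNA kit, and per the submitters' processing notes the genome build was hg38. The aligner, peak caller and use of the IgG control are not given in the sources used here. Per the file headers, the authors deposited for each GO (311) and KEGG (38) term a count of input entries, a count of background genes, a rich factor (a fold), a p-value and a corrected p-value, with the entries as identifier and symbol. A further deposited table pairs symbols with families and has no numbers. No values per library were analysed, so depth is unknown and no test between groups was made.

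Members were read from the Carbon metabolism row and matched by gene identifier to RefSeq (GRCh38.p14). Enzyme list genes were matched by symbol and older symbols. The members and lists were chosen with earlier results of these data known. By the rule for named genes, members are named in their step, with isozymes and partner subunits that had no entry. The steps of members outside the list and the grouping into enzymes, complexes and tissue classes were set after the entries were seen. Some genes of the row and the list are counted but not reported here by name. Exact 95% intervals (Clopper-Pearson) cover counting error only; genes are not replicates. The parser and intervals were tested on simulated data. Python 3.11.15, pandas 2.3.3, SciPy 1.17.1 and Matplotlib 3.10.9 were used.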

Additional observations from a re-analysis of the deposited data

How the results depend on the processing

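Counted by identifier, 71 members became 70, and the share of the background moved between 59.0 and 60.7%. The share of the enzyme list (55.5%) was 57.1% with any GO or KEGG row and 58.0% with any table. It was 54.6% with symbols as written and 56.3% by identifier. With any GO or KEGG row of corrected p under 0.05 it was 47.9%, a setting that leaves out the Carbon metabolism row itself. These settings recount the same genes, so the counting interval does not measure how far they differ. The family share (11.3%) lay between 7.04 and 11.6% by single family, by identifier and among members with a RefSeq row. The match by identifier and the restriction to members with a RefSeq row were chosen after seeing the data. Median length was 28.8 kb for list members alone, against 30.1 kb. Members had a median of 4 GO rows, or 2 with corrected p under 0.05. No paired analysis was possible because each group has 1 library and the tables hold no value per library. Depth limits every absence: a gene without an entry may still be bound.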

Other observations

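The neighbouring KEGG rows named enzymes just outside the 71. LDHA and LDHB, the lactate dehydrogenase subunits that reduce pyruvate at the end of anaerobic glycolysis, were entries of Glycolysis / Gluconeogenesis and of Propanoate metabolism. The Citrate cycle row added ACLY, which splits citrate to cytosolic acetyl-CoA, and PCK2, the mitochondrial phosphoenolpyruvate carboxykinase. PCK1, its cytosolic form, was named nowhere. Of the 14 glycolysis entries outside the 71, 6 were aldehyde dehydrogenases (ALDH1A3, ALDH1B1, ALDH2, ALDH3B1, ALDH7A1 and ALDH9A1). TMEM147-AS1 was there with the identifier of GAPDHS, the sperm isozyme, whose own symbol had no entry. Propanoate metabolism added ACACA and ACACB, which encode acetyl-CoA carboxylases.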
